A study of Arabidopsis thaliana with 60 samples.

Results

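A class of 5 compounds, here called aromatic carboxylic acids, was compared with 5 compounds of an azole set in whole Arabidopsis thaliana seedlings. The comparison used 20 of the 60 arrays of the study. The acids were 2,4,6T, PCIB, TIBA, ibuprofen and salicylic acid, with 2 arrays each and 10 in all. The azole set was propiconazole, uniconazole, paclobutrazol, Brz220 and Brz91, also with 2 arrays each and 10 in all. The members were chosen by compound name, dose, time and bracket.

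Seedlings of the Col-0 accession were 7 days old, and every compound of both sets was given at 10 µM for 3 h. All 20 arrays belonged to the bracket that the labels call F1, which held 38 arrays. Replicate numbers 1 and 2 mark the arrays of each compound. The F1 mock arrays, replicates 1 and 2 at 3 h, took no part in the fit and are given only to show where a level lay. Azoles is a working name here, because Brz220 and Brz91 are known only by code names. Propiconazole, uniconazole and paclobutrazol are triazoles. The label 2,4,6T is not spelled out in the sources used here, so it counts as an acid only by the working name of the class.

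Aromatic acids reach plant cells as natural hormones and as foreign chemicals. Salicylic acid is a hormone of defence against pathogens. PCIB, a chlorinated phenoxy acid, is used as an antagonist of auxin signalling. TIBA, an iodinated benzoic acid, is used as an inhibitor of polar auxin transport. Ibuprofen, an arylpropionic acid, inhibits prostaglandin synthesis in animals. Plants attach glutathione or sugars to foreign compounds through glutathione transferases and UDP-glycosyltransferases, and many of these genes are switched on by TGA transcription factors when foreign or reactive compounds arrive. The triazoles block cytochrome P450 enzymes of gibberellin, sterol or brassinosteroid synthesis.

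Intensities were those of single probe sets after each array was rescaled to a common trimmed mean, and differences are on the log2(intensity + 129) scale with the standard error of the fit. A probe set was called when its Benjamini-Hochberg adjusted p in limma was under 0.05, over the 15841 probe sets that passed a filter on dim values. Replicate arrays of 1 compound correlated at 0.966 to 0.979 across probe sets. RNA quality was read from actin, as signal at the 3′ end over signal at the 5′ end, which ran from 1.27 to 1.65 on the acid arrays (median 1.505, n = 10) and from 1.24 to 1.59 on the azole arrays (median 1.46, n = 10). The same ratio for GAPDH ran from 0.892 to 1.26 on the acid arrays (median 0.977) and from 0.92 to 1.19 on the azole arrays (median 0.975). Salicylic acid replicate 2 had the highest GAPDH ratio of the 38 F1 arrays, 1.26, against 0.919 for its replicate 1, and TIBA had 1.12 and 1.11, above the 6 arrays of the other 3 acids at 0.892 to 1.03. The part of RNA quality in the results was not tested. Whether both arrays of a compound stem from separate cultures is not labelled. The p-values therefore cover array-to-array spread, possibly technical. Precision was set by how many arrays there were: the median half-width of a 95% interval was 0.18 for the class difference and 0.40 for a pair of acids.

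The acids differed from the azoles in many probe sets, and TIBA and salicylic acid had by far the most calls of the single acids. Between the class means 1309 probe sets were higher with the acids (8.26% of those tested) and 1135 were lower (7.16%). The fit with 1 mean per compound speaks of these 10 compounds only. When each compound counted once, 5 acids against 5 azoles, limma called 80 higher (0.505%) and 42 lower probe sets (0.265%), and 79 and 42 of these were among the calls above. Of 53 called genes named through the class difference, as shared genes, extremes or list members, 13 were called in that way. They were 9 of the 10 named genes shared upward, both shared downward, GSTU25 and AT5G64120. Genes named only through 1 acid or a pair of acids were not counted. Without TIBA the calls were 775 higher and 596 lower, and without salicylic acid they were 1088 and 949. Without both TIBA and salicylic acid, a comparison chosen after seeing the data, they were 441 and 367, with fewer acid arrays in the fit.

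Set against the azole mean one by one, the acids gave very unequal counts. TIBA had 1451 higher (9.16% of those tested) and 1579 lower probe sets (9.97%), and salicylic acid had 1295 (8.17%) and 1146 (7.23%). Ibuprofen had 261 higher (1.65%) and 206 lower (1.3%), 2,4,6T had 235 (1.48%) and 165 (1.04%), and PCIB had 59 (0.372%) and 28 (0.177%). These 5 comparisons share the 10 azole arrays. Single arrays moved these counts by over 1.5 times. Salicylic acid had 863 calls in all without its replicate 2, against 2441 with it. TIBA had 1666 without replicate 1 and 1911 without replicate 2, 2,4,6T had 103 without replicate 1, PCIB had 22 and 25 without replicates 1 and 2, and ibuprofen had 140 and 63.

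Among the 1309 probe sets that were higher in the class, 157 were called with no acid alone and 565 with a single acid. A further 390 were called with 2 acids, 106 with 3, 64 with 4 and 27 with all 5. Among the 1135 lower ones the counts were 136, 484, 389, 78, 41 and 7. The single acid was TIBA in 361 of the 565 higher and 317 of the 484 lower probe sets, and salicylic acid in 168 and 129. Where 2 acids were called, the pair was TIBA and salicylic acid in 319 of 390 higher and 301 of 389 lower probe sets. Where 4 acids were called, the missing one was PCIB in 55 of 64 and 36 of 41.

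**Figure D1:**
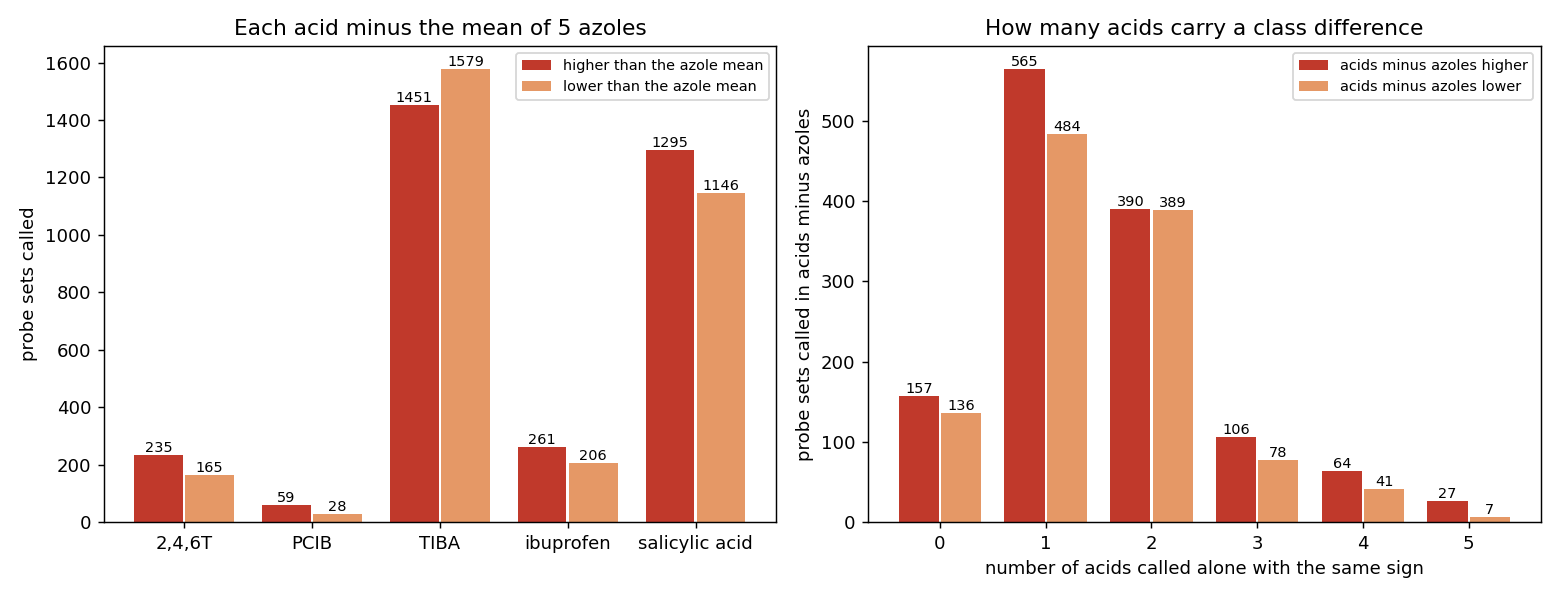
Left, the number of probe sets called higher or lower for each acid against the mean of the 5 azoles (y axis, probe sets). Right, the probe sets called between the class means, split by how many acids were called alone with the same sign (x axis). TIBA and salicylic acid exceed 1100 calls in each direction, and 27 higher and 7 lower probe sets reach all 5 acids.

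Under the rule that asks for a call in each of the 5 acids, 27 probe sets were shared upward (0.17% of those tested) and 7 downward (0.0442%). On all 27, the 10 acid arrays lay above the 10 azole arrays, which held for 64 of all probe sets tested (0.404%). On 5 of the 7 the acid arrays lay below all azole arrays, which held for 15 in all (0.0947%). The rule used these contrasts, so nothing is read from the lack of overlap. With each compound counted once, 23 of the 27 and 7 of the 7 were still called. The arrays of replicate 1 alone, 5 acid arrays against 5 azole arrays, called 22 and 5 of them, where all probe sets gave 42 higher (0.265%) and 26 lower (0.164%). Those of replicate 2 alone called 23 and 6, where all gave 74 (0.467%) and 27 (0.17%). All 3 recounts use the arrays that chose the 27 and 7, so nothing is read from them either. The upward count rested on the PCIB arrays: it was 7 without PCIB replicate 1, 4 without PCIB replicate 2 and 17 without ibuprofen replicate 2. The downward count was 2 and 3 without each PCIB array in turn.

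Among the 27 upward probe sets 10 named a gene, and GSTU22 had the largest class difference of these. GSTU22, a tau class glutathione transferase, had lowest, median and highest intensities of 1850.4, 2606 and 6695 on the 10 acid arrays, against 409.6, 761 and 1028 on the 10 azole arrays. Its class difference was 2.03 ± 0.12 (adjusted p = 1.12e-09). TIBA gave 6262 and 6602 on its 2 arrays, 2,4,6T 3189.7 and 2464, ibuprofen 2488 and 2723, PCIB 1850.4 and 2353, and the mock 418 and 665. Salicylic acid gave 2216 and 6695, so its replicate 2 reached the TIBA level while its replicate 1 lay among the weaker acids. Against the azole mean the acids ranked TIBA (2.97 ± 0.21), salicylic acid (2.25 ± 0.21), 2,4,6T (1.81 ± 0.21), ibuprofen (1.70 ± 0.21) and PCIB (1.40 ± 0.21). Of these neighbours in rank, TIBA and salicylic acid differed by 0.71 (95% interval 0.14 to 1.28) and missed the threshold over all 10 acid pairs (adjusted p = 0.156).

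UGT73B1, a UDP-glycosyltransferase, was the second conjugating enzyme of the shared set. Its lowest, median and highest intensities were 609.7, 914 and 2764 on the acid arrays, against 355, 457 and 539 on the azole arrays. The class difference was 1.06 ± 0.07 (adjusted p = 3.92e-09), and the largest part came from TIBA, with 2764 and 2413. Salicylic acid stood closest to the azoles at 715 and 609.7, which is 0.46 ± 0.12 above their mean (adjusted p = 0.0136). When each compound counted once, UGT73B1 missed the threshold (adjusted p = 0.0887).

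LTI30, a dehydrin of the cold and drought response, ranked the acids in another order. Acid arrays had lowest, median and highest intensities of 4046, 6574 and 10423, against 1677, 2453 and 3076 on azole arrays, a difference of 1.34 ± 0.09 (adjusted p = 3.93e-09). The highest acid was 2,4,6T with 10423 and 8170, followed by TIBA with 7018 and 7016. PCIB gave 4046 and 6144, below 2,4,6T by 0.87 (95% interval 0.45 to 1.29) on the log2 scale (adjusted p = 0.0112 over all 10 acid pairs, 0.109 within the pair). LTI30 was thus 1 of 2 upward shared probe sets in which 2,4,6T lay farthest from the azoles.

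The other 7 named genes shared upward carry locus identifiers only, and no role is stated for them. AT4G13180 had 3760, 7306 and 15876 on acid arrays, against 1489, 1995 and 2435 on azole arrays (lowest, median and highest), a class difference of 1.93 ± 0.086 (adjusted p = 1.96e-11). Its acids were spread widely, from 3760 and 4774 with PCIB to 14215 and 15876 with TIBA, while the azole arrays stayed within a narrow band. AT5G61820 had 4914, 7886 and 17623 on acid arrays, against 2002, 2743 and 3344 on azole arrays, with a difference of 1.63 ± 0.074 (adjusted p = 2.6e-11). In this gene, too, PCIB was the lowest acid (4914 and 5283) and TIBA the highest (16261 and 17623). AT4G36610 (1.70 ± 0.10), AT5G13900 (1.57 ± 0.098), AT3G22620 (1.39 ± 0.089) and AT1G74460 (1.199 ± 0.09) followed, with adjusted p from 1.12e-09 to 2.46e-08. AT2G44300 had the smallest difference of the named genes, 0.79 ± 0.072 (adjusted p = 2.42e-07), with salicylic acid highest at 2274 and 1732 and PCIB lowest at 1287 and 1265. The PCIB difference of AT2G44300 lay just inside the threshold (0.57 ± 0.12, adjusted p = 0.0424).

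**Figure D2:**
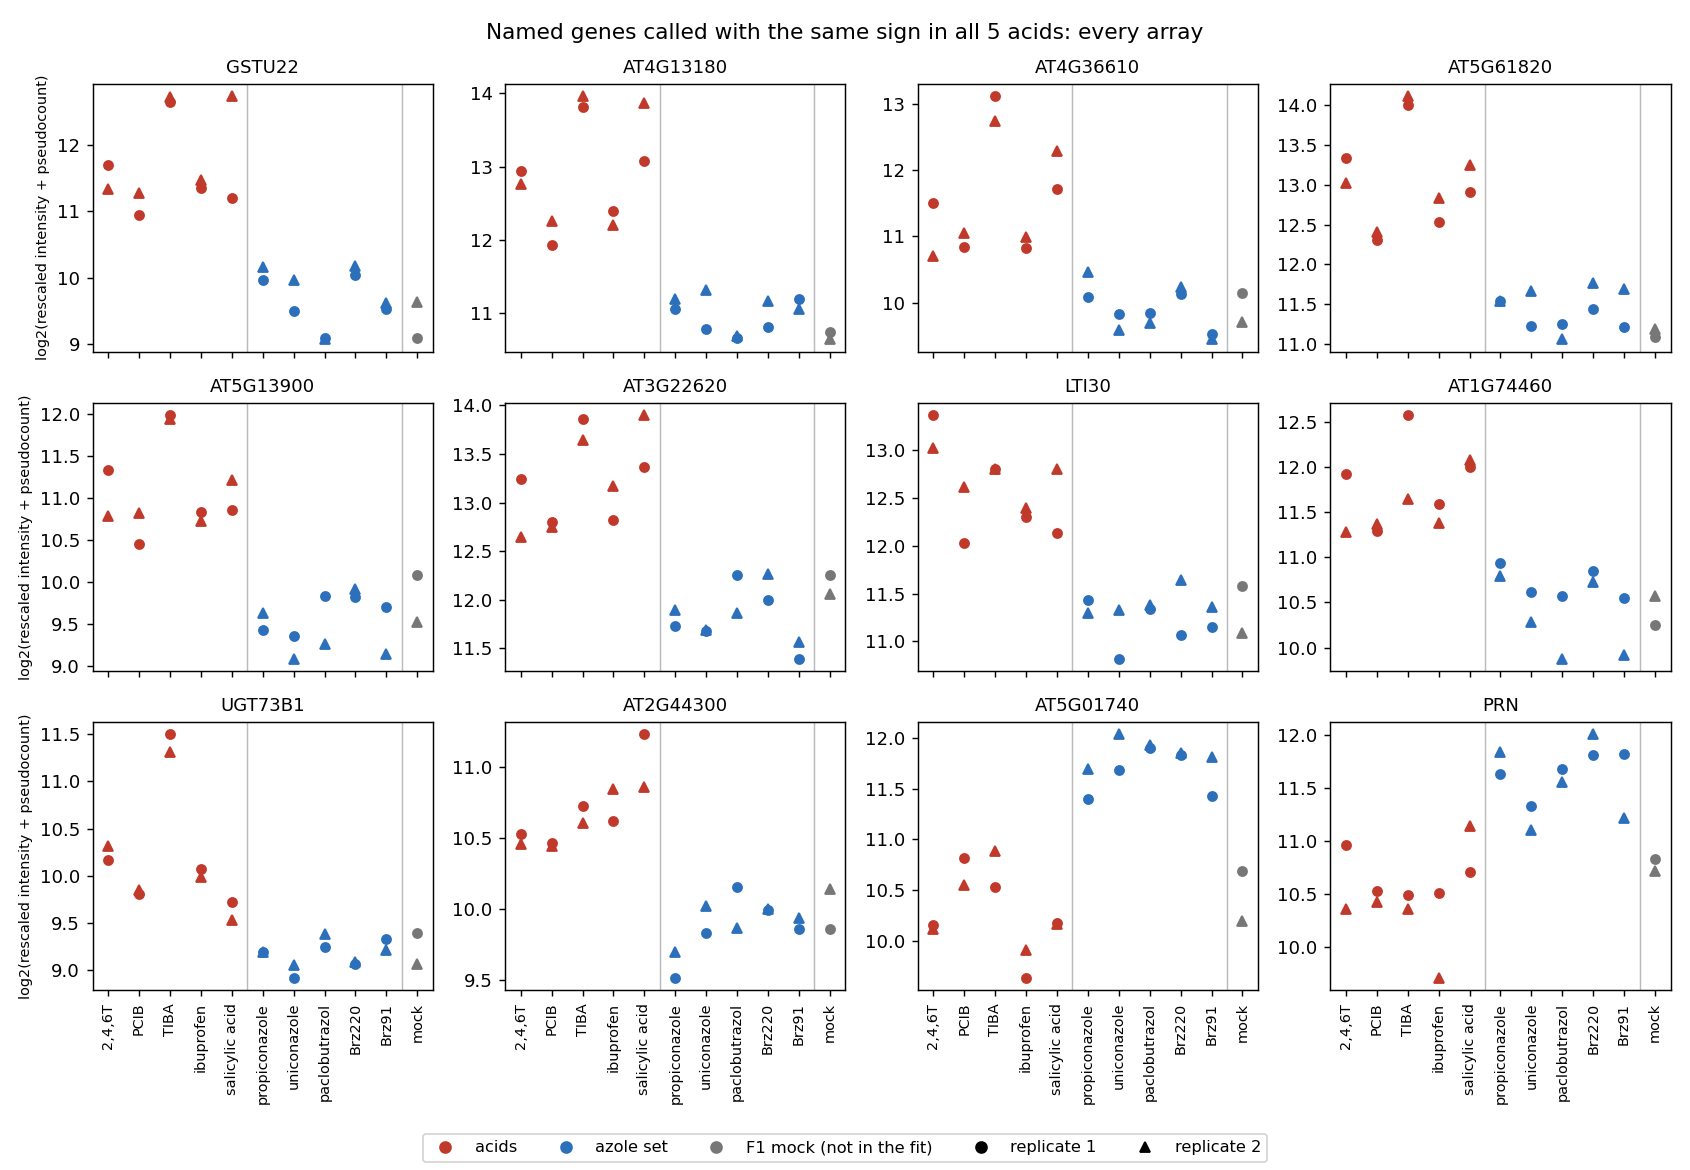
Each panel shows 1 named gene that was called with the same sign in all 5 acids; the y axis is log2(rescaled intensity + pseudocount) and each point is 1 array, circles for replicate 1 and triangles for replicate 2. In the 10 genes shared upward, from GSTU22 to AT2G44300, every acid array (red) lies above every azole array (blue). In AT5G01740 and PRN the mock arrays (grey) lie at the level of the acids and the azole arrays lie higher.

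The 2 largest shared differences came from probe sets that the annotation table used here does not list. Probe set 262518_at had 2826, 6103 and 19794 on acid arrays, against 618, 1064 and 1506 on azole arrays, a difference of 2.83 ± 0.14. Probe set 256589_at had 705, 1232 and 16379, against 23.5, 222 and 294, a difference of 2.72 ± 0.11, with TIBA 5.56 and PCIB 1.62 above the azole mean. Over all 27 upward probe sets, the median difference from the azole mean was 2.36 with TIBA, 1.53 with 2,4,6T, 1.53 with salicylic acid, 1.16 with ibuprofen and 0.95 with PCIB. TIBA lay farthest from the azoles in 19 of the 27, salicylic acid in 6 and 2,4,6T in 2. PCIB lay nearest in 19. The 27 thus shared their direction and not their size.

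The mock arrays lay nearer to the azole mean than to the acid mean in 27 of the 27 upward probe sets. Among all 15841 probe sets the mock lay nearer to the azoles in 57.4%. Mean levels of the 27 minus the azole mean ran from -0.73 to 0.42 in the mock, with a median of -0.078, and from 0.46 to 5.57 over the 5 acids. In these probe sets the acids were high, and by the median the azoles were near the mock level. Single probe sets departed from that level. The azole mean minus the mock mean was 0.73 in 253268_s_at, 0.58 in 259875_s_at and -0.42 in 256589_at.

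The 7 downward probe sets did not repeat that pattern, since the mock lay nearer to the azoles in 2 of them and nearer to the acids in the other 5. AT5G01740, which carries no name, had 666, 1023 and 1759.9 on acid arrays, against 2573, 3489.8 and 4069 on azole arrays, and 1518 and 1043 on the mock arrays. The class difference was -1.46 ± 0.07 (adjusted p = 5.4e-11). The acid mean was -0.15 from the mock mean and the azole mean was 1.32 from it, so the azole arrays stood out. PRN, which encodes a pirin-type protein, had 710.3, 1320.5 and 2140.1 on acid arrays, against 2078, 3095 and 3988 on azole arrays, and 1694 and 1561 on the mock arrays. Its class difference was -1.08 ± 0.10 (adjusted p = 3.36e-07), with the acid mean -0.26 and the azole mean 0.82 from the mock. One salicylic acid array of PRN, at 2140.1, reached above the lowest azole array.

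Of the unnamed downward probe sets, 256598_at had 1121, 1448 and 1965 on acid arrays, against 4108, 4844 and 5682 on azole arrays, and 887 and 1072 on the mock arrays. Here both classes were at or above the mock. Probe set 247954_at had 1646, 3024 and 5468 on acid arrays, against 5871, 7031 and 10185 on azole arrays, and 5849.7 and 10696 on the mock arrays. It was 1 of the 2 in which the azoles were at the mock level and the acids were low.

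**Figure D3:**
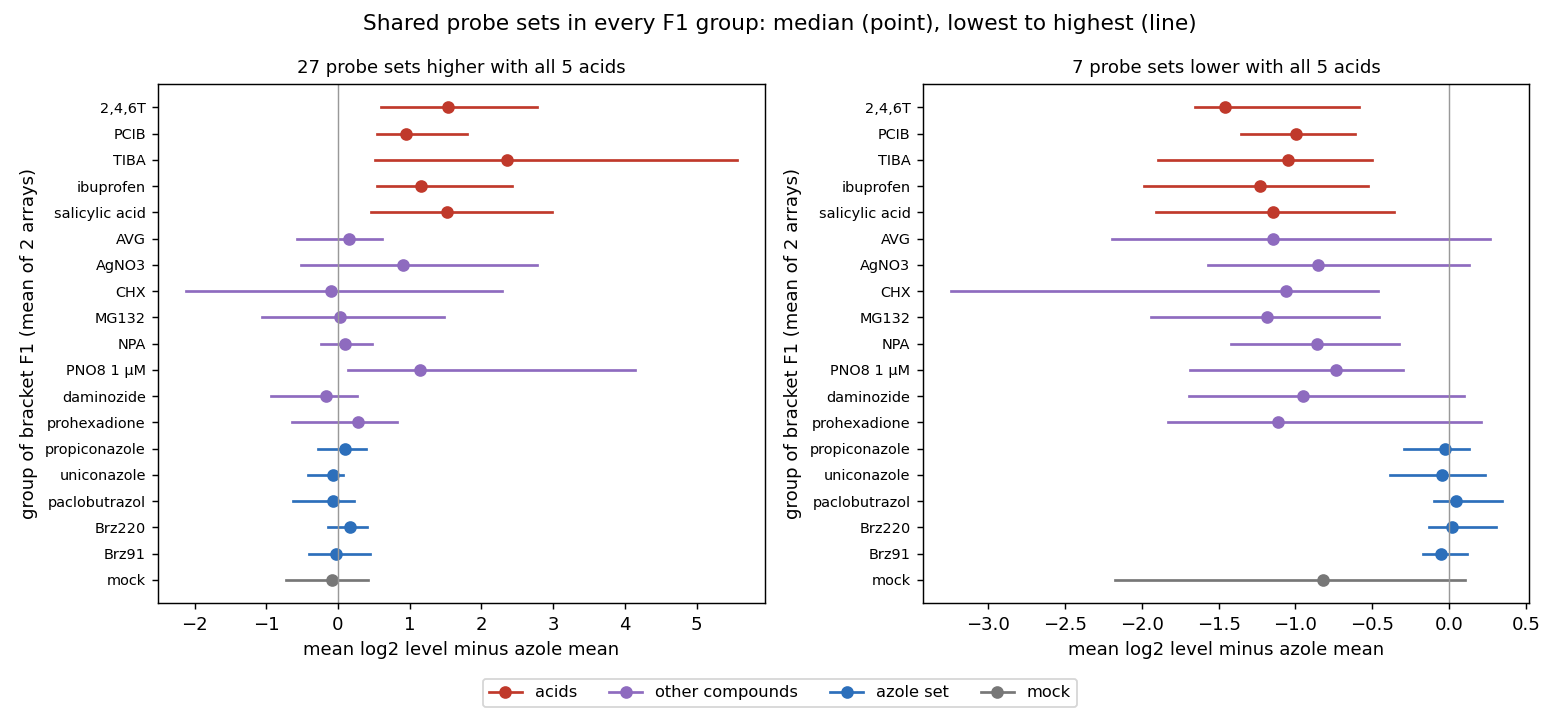
Mean log2 level of the shared probe sets minus the azole mean (x axis) in each group of bracket F1, each the mean of 2 arrays; the point is the median over the probe sets and the line runs from the lowest to the highest. The medians of the 27 upward probe sets are high with the 5 acids, with 1 µM PNO8 and with AgNO3, and near 0 in the azole set and the mock. The medians of the 7 downward ones lie below 0 in every group outside the azole set, mock included.

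NPA, an inhibitor of auxin transport that also carries an aromatic carboxylic acid, lies outside the class and stayed near the azoles in the upward set. Its levels of the 27 upward probe sets ran from -0.23 to 0.47 around the azole mean, with a median of 0.10. GSTU22, for example, had 625 and 689.6 on the NPA arrays, within the azole range, and a difference of -0.094 ± 0.21 from the azoles (adjusted p = 0.905). For the 7 downward probe sets NPA ran from -1.42 to -0.33, with a median of -0.86, close to the mock median of -0.82. Across all probe sets limma called 8 higher (0.0505%) and 35 lower (0.221%) with NPA than with the azoles. None of the 27 upward and 5 of the 7 downward probe sets were among them, and 2 of the 27 were higher at an unadjusted p under 0.05 in a fit over the 38 arrays. The comparisons of NPA and of the acids share the azole arrays.

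Other F1 compounds also reached high levels of the 27 upward probe sets. PNO8, at 1 µM and not at the dose of the acids, had a median of 1.14 above the azole mean and a range from 0.13 to 4.14. AgNO3 had a median of 0.91 and a range from -0.51 to 2.77. AVG, MG132, CHX, daminozide and prohexadione had medians between -0.17 and 0.28. CHX, which blocks protein synthesis, had by far the widest range of these 5, from -2.12 to 2.29. In a limma fit over the 38 arrays, chosen after seeing the data, AgNO3 called 20 of the 27 as higher than the azoles (13.5% of all probe sets tested), PNO8 18 (1.26%), CHX 10 (20.8%), prohexadione 6 (2.28%) and MG132 1 (0.511%). AVG, daminozide and the mock called none of the 27, and 8, 0 and 1 of them were higher at an unadjusted p under 0.05.

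The 7 downward probe sets were called lower than the azoles in most other groups too. In the same fit CHX called 7 of the 7 (42% of all probe sets tested were lower), AgNO3 6 (20.2%), MG132 6 (1.04%), AVG 5 (1.35%), PNO8 4 (0.511%), prohexadione 4 (2.42%), daminozide 4 (0.0631%) and the mock 4 (0.17%). All these comparisons share the azole arrays that the rule used, so the counts describe the members only. A call in all 5 acids was therefore not a call in acids alone.

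Several genes with large class differences were called in 4 acids and fell short with 1. GSTU25, a further tau class glutathione transferase, had the largest class difference of the named genes. It reached 924, 5556 and 18680 on acid arrays, against 334, 449.9 and 1009 on azole arrays, a difference of 3.14 ± 0.21 (adjusted p = 3.93e-09). TIBA gave 18680 and 15202, 2,4,6T 6005 and 6103, ibuprofen 5106 and 3111 and salicylic acid 3660.4 and 14071. PCIB gave 924 and 3438, with its replicates far apart, and missed the threshold just outside it (1.58 ± 0.36, adjusted p = 0.0557). GSTU25 and GSTU22 both had a lower first and a higher second array with PCIB and with salicylic acid.

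GH3.3, an enzyme that joins amino acids to auxin, was called in every acid but ibuprofen. Lowest, median and highest intensities were 695, 2747 and 28039 on acid arrays, against 502, 621 and 825 on azole arrays, a difference of 2.29 ± 0.18 (adjusted p = 2.46e-08). TIBA was highest with 17624 and 28039, and ibuprofen stayed near the azoles with 959 and 695 (0.31 ± 0.30, adjusted p = 0.638). NPA, outside the class, had 5895 and 6307, which is 3.03 ± 0.30 above the azole mean (adjusted p = 1.01e-05). GH3.3 therefore separated ibuprofen from the other acids and was not particular to the class. Of the 4 GH3 genes measured, GH3.17, an enzyme of the same kind, was lower in the class (-0.55 ± 0.08, adjusted p = 8.25e-05), with 328 and 457 under TIBA, and 1119.9, 1588 and 2064 on the azole arrays.

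Downward, PCIB, the acid with the fewest calls, was the one not called in 36 of the 41 probe sets called with 4 acids, and some of these stayed near the azole mean with it. XTH26, a xyloglucan endotransglucosylase of the cell wall, had 9.63, 459 and 1354 on acid arrays, against 520.2, 1428 and 2151 on azole arrays, a difference of -1.50 ± 0.14 (adjusted p = 3.69e-07). TIBA had 9.63 and 45.9, 2,4,6T 498 and 592, ibuprofen 420.3 and 321 and salicylic acid 566 and 157. PCIB had 1354 and 1177, inside the azole range (-0.029 ± 0.24, adjusted p = 0.979). AT1G34510, AT3G49960 and AT1G30870, which have no name here, showed the same split: their differences from the azoles were -4.03, -3.95 and -3.32 with TIBA, and 0.031, 0.10 and 0.11 with PCIB. EXPA18, an expansin of growing root hairs, was called with 3 acids. It was lower in the class by -1.21 ± 0.17 (adjusted p = 3.81e-05) and had 2317 and 2968 with PCIB, inside the azole range of 1362, 2720.5 and 3737 (lowest, median and highest). In whole seedlings a lower level can come from fewer cells of a type or from less RNA per cell, and these cannot be told apart.

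An acid was said to lead a gene when the gene was called between the classes and that acid differed from the mean of the other 4 acids with the same sign. It carried the gene when, in addition, the mean of the other 4 acids was not called against the azoles. A missed call does not show that the other acids were unchanged. TIBA led 939 of the 2444 probe sets (5.93% of all tested) and carried 517 of them (3.26%). Salicylic acid led 405 (2.56%) and carried 260 (1.64%). Ibuprofen led 21 (0.133%), PCIB led 12 (0.0758%) and 2,4,6T led 3 (0.0189%). No acid led 535 of the higher and 634 of the lower probe sets, and more than 1 acid led 68 and 37. TIBA led 548 without its replicate 1, and salicylic acid led 167 without its replicate 2. The counts of the other 3 acids moved by over 1.5 times with single arrays and ranged from 2 to 28, from 6 to 14 and from 1 to 7. The filter on dim values can be passed by the 2 arrays of 1 compound. A probe set that is dim elsewhere may therefore have been kept only through the acid that leads it, and such cases were not counted. Under the strict filter, with fewer probe sets tested, TIBA led 724 and salicylic acid led 337. The genes below were picked by these contrasts, so their values describe the selection.

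TIBA led upward with genes whose azole arrays ran from dim to moderate intensities. AT4G37290 had 4332 and 3399 with TIBA, while the other acids lay between 21.5 and 320.3 and the azole arrays had 7.53, 47.7 and 175 (lowest, median and highest). AT2G29500 had 11031 and 9318 with TIBA, while no array of another acid exceeded 939.9 and the azole arrays had 295, 453 and 559.8. TIBA stood 3.91 ± 0.30 above the other acids in AT4G37290 and 3.79 ± 0.16 above them in AT2G29500. In AT2G41730 TIBA reached 11743 and 16070, with salicylic acid at 531 and 5051 and azole arrays at 340.3, 468 and 1139.6. The early stress regulators WRKY6, a transcription factor of senescence and defence, and STZ, a zinc finger repressor, were led by TIBA as well. STZ had 2526 and 4318 with TIBA, against 355, 434 and 598 on azole arrays, and WRKY6 had 3516 and 2743, against 413, 553 and 726.

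TIBA also led several conjugating enzymes of the xenobiotic response, though not UGT76B1. UGT73B5, a UDP-glycosyltransferase, had 4519 and 3872 with TIBA, and 29.7, 136 and 198 on azole arrays, a difference of 4.08 ± 0.25 (adjusted p = 7.09e-10). The same contrast gave 1.22 ± 0.25 with 2,4,6T and 1.22 ± 0.25 with salicylic acid, both called, and 0.61 ± 0.25 with ibuprofen and 0.60 ± 0.25 with PCIB, which were not. UGT73B4, its close relative, had 3556 and 2225 with TIBA, against 12.5, 58.9 and 146 on azole arrays, many of which were dim. AER, an alkenal reductase, had 7959 and 7977 with TIBA, against 1705, 2299.9 and 2605 on azole arrays, and was called in no other acid. UGT73B4 and UGT73B5 are close in sequence, and their probe sets may share signal.

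Salicylic acid led genes that were called in no other acid. AT1G19960 had 7909 and 8321 with salicylic acid, while the other 8 acid arrays lay between 19.2 and 229.4 and the azole arrays had 51, 156 and 244. The lead over the other acids was 4.97 ± 0.27 on the log2 scale. AT1G29020 had 8829.8 and 5788, against 294, 443 and 661 on azole arrays, and AT5G22555 had 2209 and 1390.4, against 10.5, 30.9 and 90. The gene cwINV6, annotated as a cell wall invertase, had 5890.1 and 4697 with salicylic acid, against 275, 321 and 404 on azole arrays. In each of these 4 genes the class difference was 0.63 to 0.86 although none of the other 4 acids was called against the azoles.

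UGT76B1, a glycosyltransferase that acts on salicylic acid and on isoleucic acid, was led by salicylic acid over a smaller response to the others. It had 13905 and 28699 with salicylic acid, 2162 and 3426 with 2,4,6T, 1491 and 2356 with TIBA, 1647 and 1325 with ibuprofen and 1296 and 978 with PCIB. The azole arrays had 477, 702 and 987 (lowest, median and highest). Of the acids, 4 were called against the azoles, with 4.62 ± 0.21 for salicylic acid, and PCIB was not (0.62 ± 0.21, adjusted p = 0.273). WRKY53, a transcription factor of senescence and defence, had 628 and 1068 with salicylic acid and 611 and 422 with TIBA, against 159.9, 221 and 261 on azole arrays. Downward, salicylic acid led AT5G62210, with 83.5 and 62.8, against 491, 963 and 1642 on azole arrays, and AT1G47400, with 1333 and 1061, against 2109, 3027 and 6054.

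The remaining acids led few genes. AT1G72800 was led by 2,4,6T with 2233 and 2418, but TIBA was as high with 2243 and 2465 and led it too, while PCIB had 527 and 629 and the azole arrays 288, 412 and 595. Ibuprofen led AT5G01740 downward with 666 and 834, the lowest of the acids in that shared gene. It also led AT4G17100 downward with 1440.3 and 888, against 1512, 2171 and 2745 on azole arrays. PCIB led Prx37, a class III peroxidase, downward with 861 and 842, against 1288, 1896 and 2488 on azole arrays (-0.98 ± 0.20, adjusted p = 0.0218). PCIB led AT1G29660 upward with 4189 and 3120.1, whereas TIBA lay below the azoles in it with 1005 and 1026, and the azole arrays had 1299.5, 1836 and 2436. The mock arrays of AT1G29660 had 5232 and 3781, above all azole arrays.

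**Figure D4:**
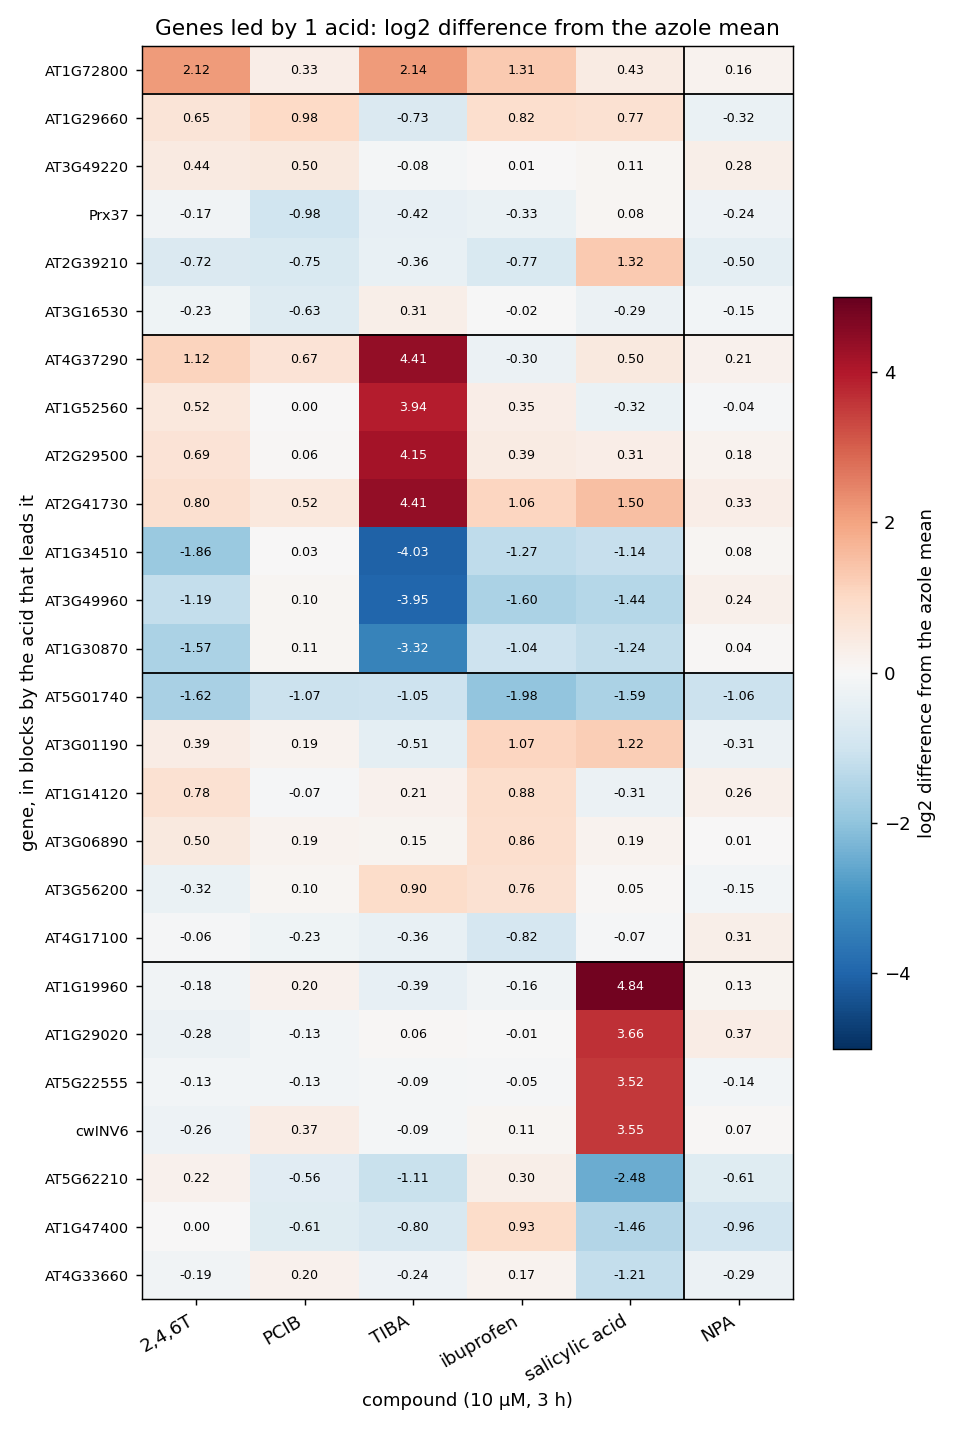
Log2 difference of each acid, and of NPA, from the azole mean (columns) for named genes led by 1 acid (rows, in blocks by the acid that leads them); colour and printed value give the difference. The TIBA and salicylic acid blocks hold differences above 3.5 in their own column, and AT5G01740 is negative in all 5 acids and in NPA.

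The class differences of the gene lists were uneven. Of 1023 listed genes 121 were measured, that is, named by a probe set that passed the filter. The list counts describe these members and not whole families. The lists were chosen with earlier results of these data known, so nothing is read from how many members were called. Over all 8579 genes named by a probe set, 649 were higher and 580 lower, and the median difference was 0.011. Against the azoles, TIBA called 699 higher and 788 lower of these 8579 genes, salicylic acid 619 and 590, ibuprofen 112 and 87, 2,4,6T 110 and 72, and PCIB 26 and 11, and the counts of each acid below stand beside these. Of 7 measured xenobiotic and TGA-factor response genes, in a list of 42, 7 were higher and none lower, with a median of 1.86. They were GSTU22, GSTU25, UGT76B1, UGT73B4, UGT73B5, AER and GRX480, a glutaredoxin that binds TGA factors. With each compound counted once, GSTU22 and GSTU25 were called among these 7. TIBA alone called 7 of the 7, salicylic acid 6, 2,4,6T 5, ibuprofen 3 and PCIB 1. GRX480 had 1238 and 2247 with salicylic acid and 1301 and 1869 with TIBA, against 118, 206 and 331 on azole arrays. Of 51 listed glutathione transferases only 9 were measured, so the family is not judged. Among these 9, 3 were higher, none was lower and the median was 0.089.

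UDP-glycosyltransferases moved both ways, with 11 of 35 measured genes higher and 5 lower, and a median of 0.067. Beside those given above, UGT87A2 was higher by 1.16 ± 0.077 and GT72B1 by 0.89 ± 0.072. GT72B1 conjugates chlorinated phenols and anilines. UGT72E2, which glucosylates monolignols, was lower by -0.59 ± 0.077 (adjusted p = 2.11e-05), with 535 and 614 under TIBA, against 1835, 2347 and 2575 on azole arrays. TIBA alone called 14 higher and 8 lower, and PCIB called UGT73B1 only, where over all 8579 genes TIBA called 699 and 788 and PCIB 26 and 11.

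Of 4 measured salicylate response genes, in a list of 34, all 4 were higher in the class, with a median of 0.95: UGT76B1, GRX480, SAG101 and WRKY53. Salicylic acid alone called 4 of them, TIBA 3, 2,4,6T 1, ibuprofen 1 and PCIB none, where over all 8579 genes the higher calls were 619, 699, 110, 112 and 26 in that order. UGT76B1 and GRX480 also belong to the xenobiotic list, and none of the 4 was called with each compound counted once (adjusted p = 0.144 for UGT76B1). SAG101, a partner of the defence regulator EDS1, had 573 and 761 with salicylic acid, against 179, 250.1 and 323 on azole arrays, and was called in no other acid.

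Cell wall expansion genes, the expansins and xyloglucan endotransglucosylases, had 5 lower and no higher genes of 21 measured, with a median of -0.11. TIBA alone called 11 lower and 1 higher (median -0.47), salicylic acid 8 and 2 (-0.27), 2,4,6T 2 and none, ibuprofen 1 and 1, and PCIB none and 1 (0.17). Over all 8579 genes TIBA called 788 lower and 699 higher, and salicylic acid 590 and 619. None of the 5 class calls was kept with each compound counted once (adjusted p = 0.125 for XTH26). The 2 measured root hair markers, in a list of 35, were EXPA7 and EXPA18. Both were lower, and both belong to the cell wall list. EXPA7 was lower by -0.77 ± 0.14 (adjusted p = 0.000788), and called with TIBA and salicylic acid. Of 3 measured genes in a list of 9 class III peroxidases, 2 were lower, Prx37 and AT5G64120. The latter is peroxidase 71 and had 2232, 4107 and 6012 on acid arrays, against 4754, 7542 and 9509.7 on azole arrays. The list was matched by gene name, so peroxidases that carry no name here may be missing from this count. Of 7 measured markers of leaf photosynthesis, in a list of 45, RCA, the Rubisco activase, was higher (0.57 ± 0.16, adjusted p = 0.0217). The other 6 were not called, and the median over the 7 was 0.047. TIBA alone called 1 lower, ibuprofen 1 higher, and salicylic acid 1 higher and 1 lower. The part of cell type shares in these differences was not tested.

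The remaining lists held few calls. Of 14 measured cytochrome P450 genes, in a list of 240, CYP71B6 was higher in the class (0.20 ± 0.065, adjusted p = 0.0451). CYP71B37 (-0.28 ± 0.092) and CYP84A4 (-0.33 ± 0.099) were lower. WAG2, a kinase of auxin transport and the 1 measured gene of its list, was higher by 0.44 ± 0.12 (adjusted p = 0.0133) and was called with TIBA. Of 4 measured wound and early stress genes 2 were higher, WRKY6 and STZ. No class call fell among 3 ethylene, 2 jasmonate, 5 gibberellin, 2 brassinosteroid response, 5 flavonoid and 2 heat shock and proteasome genes measured. Single acids were called in them. The heat shock and proteasome list holds 62 genes, so its 2 measured members do not speak for the others. It was matched by gene name, so heat shock genes that carry no name here, called ones included, may be missing from it. ARL, an organ size gene of the ethylene list, was higher with TIBA (0.65 ± 0.13) and lower with ibuprofen (-0.61 ± 0.13) and salicylic acid (-0.41 ± 0.13). EIN3, a transcription factor of ethylene signalling, was lower with ibuprofen (-0.44 ± 0.095). OPCL1, of jasmonate synthesis, was higher with TIBA (0.59 ± 0.14), and PDF1.2, a defensin, was lower with salicylic acid (-1.08 ± 0.34). GID1A, a gibberellin receptor, was lower with TIBA (-0.63 ± 0.15), and EXPA8 was higher with salicylic acid (0.74 ± 0.20). BIM1, of brassinosteroid signalling, was lower with TIBA (-0.50 ± 0.14) and salicylic acid (-0.57 ± 0.14). AT5G48570, of the heat shock list, was higher with TIBA (0.98 ± 0.18), and 1 and 2 flavonoid genes were lower with TIBA and salicylic acid.

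The 5 acids were compared directly in 10 pairs at the same dose and time, with p adjusted over all probe sets of all 10 pairs. They gave 9286 calls in all. The smallest counts were 163 between 2,4,6T and PCIB (1.03% of probe sets tested), 169 between 2,4,6T and ibuprofen (1.07%) and 267 between PCIB and ibuprofen (1.69%). The 7 pairs that held TIBA or salicylic acid gave 952 to 1444 calls. The 10 pairs within the azole set, treated in the same way, gave 6 calls (at most 0.0189% of probe sets in a pair), with 431 to 1259 probe sets at an unadjusted p under 0.05 in each pair. In 7 of these pairs limma called none. The unadjusted counts were 2961 to 3562 in the 7 pairs that held TIBA or salicylic acid, above all azole pairs. In the other 3 they were 1064 for 2,4,6T and PCIB, 1502 for 2,4,6T and ibuprofen and 1684 for PCIB and ibuprofen, and the first lay within the azole range. With p adjusted within each pair alone, a setting chosen after seeing the data, these 3 pairs had 9, 12 and 52 calls, and the azole pairs 0 to 10. Most calls in these 3 pairs thus rest on the adjustment over 10 pairs.

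TIBA and salicylic acid are both benzoic acids, the first with iodine and the second with a hydroxyl group on the ring. TIBA was higher than salicylic acid in 581 probe sets and lower in 831 (8.91% together). UGT76B1 differed between them by -3.33 (95% interval -3.90 to -2.75) (adjusted p = 3.04e-07) and UGT73B1 by 1.78 (95% interval 1.45 to 2.11) (adjusted p = 5.89e-07). GH3.3 differed by 2.48 (95% interval 1.65 to 3.30) (adjusted p = 0.000432). Shared genes with no call between them still left wide intervals, as for AT4G13180 with 0.42 (95% interval 0.016 to 0.82) and LTI30 with 0.34 (95% interval -0.084 to 0.76).

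Ibuprofen and salicylic acid, an arylpropionic and a hydroxybenzoic acid, differed in 1224 probe sets (7.73%), 471 higher and 753 lower with ibuprofen. AT1G47400 was higher with ibuprofen by 2.39 (95% interval 2.03 to 2.75) (adjusted p = 5.75e-08), with 7879.8 and 5821 under ibuprofen and 1333 and 1061 under salicylic acid. AT5G03350 was lower with ibuprofen by -5.34 (95% interval -6.52 to -4.15) (adjusted p = 5.21e-06), with 483 and 526 under ibuprofen and 19534 and 33160 under salicylic acid. Between 2,4,6T and PCIB, AT4G01870 differed by 1.90 (95% interval 0.92 to 2.88) (adjusted p = 0.0172), with 7895 and 8231 under 2,4,6T and 1803 and 2362 under PCIB, a call lost with adjustment within the pair (adjusted p = 0.136). GSTU22 had no call between 2,4,6T and PCIB, with 0.40 (95% interval -0.17 to 0.98) (adjusted p = 0.502), whereas GSTU25 had one, with 1.67 (95% interval 0.69 to 2.66) (adjusted p = 0.0397), also lost within the pair (adjusted p = 0.241).

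**Figure D5:**
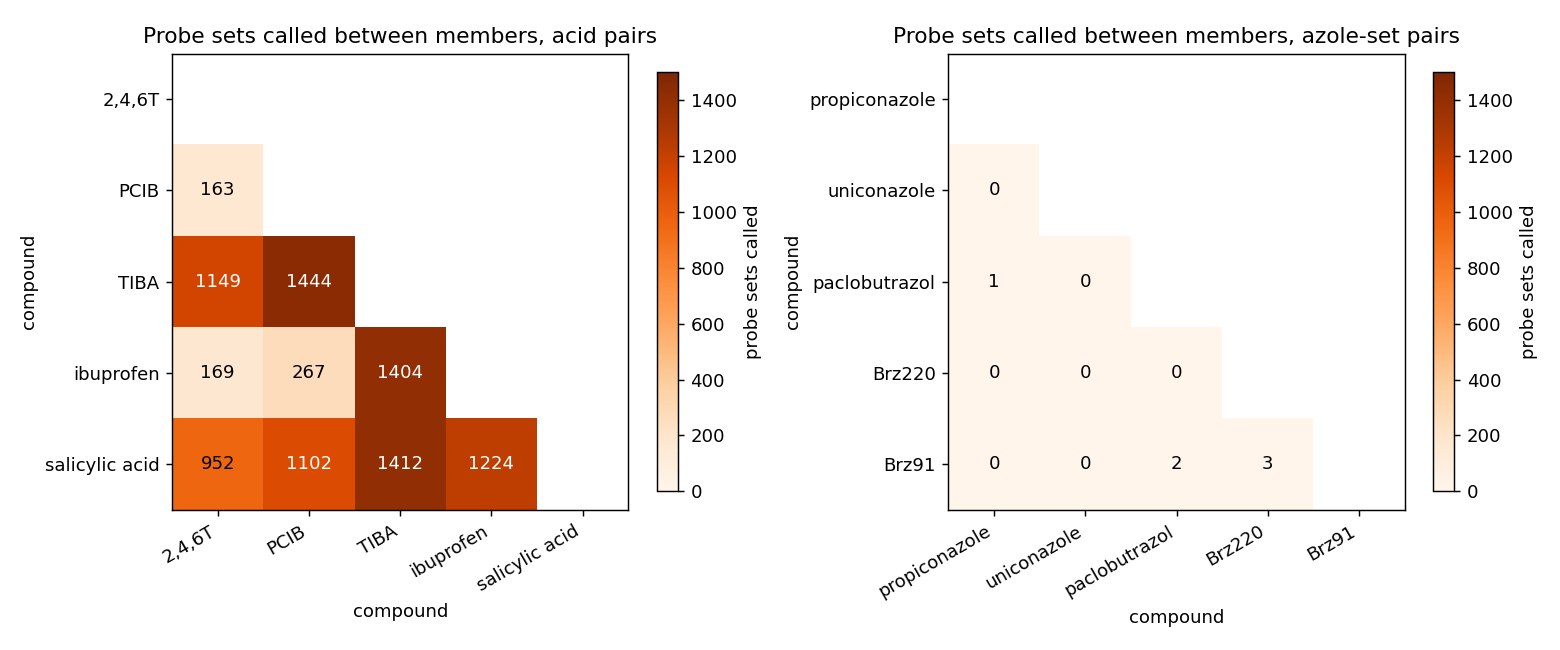
Number of probe sets called, with p adjusted over the 10 pairs of a set, between every pair of acids (left) and every pair within the azole set (right), on a common colour scale. Acid pairs range from 163 to 1444 calls and azole pairs from 0 to 3.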

How the data were processed

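The deposited table holds probe set intensities from Affymetrix ATH1 arrays, which the authors computed using MAS5 according to the submitters' processing notes, with no version stated. In bracket F1 the intensities of replicates 1 and 2 had 2 different trimmed means, 1523 and 1220, so every array was rescaled to 1372, the mean over the 20 arrays. The 64 control probe sets were left out. A probe set was kept if it passed the 40th percentile of an array on 2 or more of the 20 arrays, which left 15841 of 22746. The pseudocount of 129 is the 20th percentile of the intensities.

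The linear model, limma 3.58.1 under R 4.3.3, held a mean for each compound with the replicate number as a fixed block and an intensity trend in the prior, with 9 residual degrees of freedom; p-values were adjusted with Benjamini-Hochberg over all probe sets kept, and over all 10 pairs for pairs of acids or azoles. The pairing comes from the replicate numbers and the separate scaling of the 2 sets: deviations of same-numbered arrays correlated at 0.063 to 0.303 (median 0.18) over 45 compound pairs, 43 of them over 0.1. On simulated data with 15841 probe sets, a change of 1 log2 unit in all acids was called in 100% of 50 changed probe sets for acids minus azoles, and in 68% by the rule that asks for all 5 acids. A change of 0.5 gave 76% and 12%. A change in 1 acid was recovered as led in 14% at a size of 1 and in 66% at a size of 2.

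A probe set was named only where the platform annotation gives 1 gene: 13513 probe sets name 1 gene, of which 13436 matched the TAIR10.1 gene table, 503 name several and 8730 are not listed. Several probe sets of a gene were represented by the brightest. The named genes are the extremes of the shared set, of each acid's led genes and of the class difference, the called members of each gene list, and the extremes of 3 acid pairs; some are left out for space. The members and the gene lists were chosen with earlier results of these data known. Gene lists with no member measured, or with no call between an acid or the class and the azoles, are not described. Promoter motifs were not searched, because no promoter sequences were used here. Python 3.11.15 drew the figures.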

Additional observations from a re-analysis of the deposited data

Results flagged for a closer look

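In 4 of 184 tests of a class of 10 arrays, 1 array stood apart from the other 9 by Dixon's criterion, which flags about 1 group in 20 by chance. On the acid arrays, salicylic acid replicate 1 was the highest for AT2G44300, at 2274, against 1732 for salicylic acid replicate 2. On the azole arrays, propiconazole replicate 2 was the lowest for AT1G30870, at 4568, and also for XTH26, at 520.2. Brz91 replicate 2 was the lowest azole array for UGT72E2, at 1835. Each of the 4 class differences is called with and without that array.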

How the results depend on the processing

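The replicate block, which pairs arrays by number, mattered most for the acids with few calls. With no replicate block the class calls were 1052 higher and 790 lower, the shared calls 16 and 4, and the azole pairs 0. The calls against the azoles were then 261 for 2,4,6T, 51 for PCIB and 165 for ibuprofen, with 20 for NPA. The counts led by an acid were 1 for 2,4,6T, 4 for PCIB, 6 for ibuprofen and 264 for salicylic acid.

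The class calls depended on the unit of replication: 80 higher and 42 lower with compound as the unit, 577 and 483 with 2 class means over 20 arrays, 42 and 26 for replicate 1 alone, and 74 and 27 for replicate 2 alone. They were 775 and 596 without TIBA and, in a setting added after seeing the data, 441 and 367 without TIBA and salicylic acid. The strict filter, with fewer probe sets tested, gave 829 higher. Counts near 0 moved under several settings. Those led by 2,4,6T were 6 with 4 times the pseudocount and 1 with all 38 arrays fitted. Those led by PCIB were 6 with no intensity trend. Those led by ibuprofen were 13 with no filter, 12 with all 38 arrays, 10 with no intensity trend and 13 without paclobutrazol. Ibuprofen had 250 calls against the azoles with no intensity trend and 305 without paclobutrazol, and NPA had 27 with no intensity trend. The azole pairs gave 19 calls with p adjusted within each pair, a setting added after seeing the data, where the acid pairs gave 9957. The azole pairs gave 12 calls with 4 times the pseudocount, 0 with all 38 arrays, 0 with no intensity trend, 2 with the 3 triazoles alone, and 10, 2, 3 and 0 without uniconazole, paclobutrazol, Brz220 and Brz91. Except where the setting itself removes arrays or probe sets, the cause was not tested.

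Leaving out each array in turn gave 1057 to 1407 higher and 882 to 1236 lower class calls, 4 to 34 shared upward and 2 to 8 downward. Calls against the azoles ran from 103 to 456 for 2,4,6T, 22 to 114 for PCIB, 1666 to 3123 for TIBA, 63 to 558 for ibuprofen, 863 to 2506 for salicylic acid and 34 to 50 for NPA. Led counts ran from 1 to 7, 6 to 14, 548 to 929, 2 to 28 and 167 to 466 in the same order of acids. Acid pairs gave 6623 to 9325 calls and azole pairs 0 to 27. Of 2049 values of named genes under the other settings, 1738 kept direction and side of the threshold, 311 kept direction but missed the threshold, and none reversed. Dim probe sets limit the fold: below about the pseudocount of 129, a log2 difference understates the change.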
